A study of Mus musculus with 33 samples.

Results

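Of 18927 regions with a p53 peak in any of 26 lymphoma peak lists, 414 were called in at least 2 of 4 lymphomas after p53 was switched on with 4-hydroxytamoxifen (OHT), in none of the same 4 lymphomas given ethanol, and in none of 18 lists from lymphomas that lacked Arf. These 414 regions, 2.19% of all, are the OHT-restricted sites described here. They were chosen by these presence and absence calls, so the calls themselves are given as a description and carry no test. Peaks of all lists were merged into 1 region where they shared at least 1 bp.

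The peaks come from chromatin immunoprecipitation and sequencing (ChIP-seq) of p53 with the CM5p antibody, in B cell lymphomas from lymph nodes of Eµ-myc mice on a C57/Bl6 background. The Eµ-myc transgene drives the Myc oncogene in B cells, and all 7 tumours carry it. Tumours 1 to 4 carried 1 knock-in (KI) Trp53 allele opposite a deletion (Trp53 KI/delta) and received 100 nM OHT for 2 h or 1 volume of ethanol (EtOH) per 1000 for 2 h. Tumours 5 to 7 were Arf-/- with both Trp53 alleles wild type (Trp53+/+). These were sampled untreated, or after 3 h with water (1 volume per 1000), DMSO (0.5 volumes per 1000), 5 µM (+)-Nutlin, 5 µM (-)-Nutlin or 1 µM doxorubicin. Genotype, agent and time differ together between the KI and the Arf tumours and cannot be told apart. The lymph nodes were pressed to single cells with no purification, so other cells of the node are included, and peak positions do not show the cell type.

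As background, p53 is a tetrameric transcription factor that binds a pair of palindromic half-sites in DNA. It is kept low by Mdm2, which marks it for degradation, and Arf, a product of the Cdkn2a locus that Myc induces, holds Mdm2 in check. In the knock-in mouse line generally used with OHT, p53 is fused to the hormone-binding part of the oestrogen receptor and works only while OHT is present. (-)-Nutlin keeps Mdm2 from binding p53, and doxorubicin breaks DNA and so activates p53 through damage signalling.

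The peak lists give position and width alone, in mouse build mm9, with no height or score. Read depth is unknown. The 4 OHT lists held 4102, 3597, 10084 and 9738 peaks in tumours 1 to 4, and the 4 EtOH lists 116 to 742. For Arf tumours, lists ranged from 5617 to 11346 peaks with doxorubicin or (-)-Nutlin and from 707 to 2696 in the remaining 12. The OHT, doxorubicin and (-)-Nutlin lists all consist of wide peaks, with a smallest peak of at least 278 bp, whereas the EtOH lists consist of peaks that can be as short as 52 bp. No annotation or genome of mm9 was used here, so the sites are given by position without gene names or sequences, and p53 motifs and distances to genes were not analysed here.

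Nearly all recurrent OHT sites were found in Arf tumours as well, and the restricted sites are the small remainder. Of the 18927 regions, 8100 had a peak in at least 2 OHT lists and no EtOH list, which is 42.8%. Of these 8100, 7686 also had a peak in an Arf list, and 414, or 5.11%, had none. The 7686 regions shared with Arf tumours serve below as the comparison regions. In the opposite direction, of 11473 regions called in at least 2 doxorubicin or (-)-Nutlin lists and in no EtOH list, 2749, or 24%, had no OHT peak. The Arf side has 6 such lists against 4 OHT lists, so the shares 5.11% and 24% rest on unequal numbers of lists. Recurrence also differs in kind. Any 2 OHT lists come from different tumours, whereas the doxorubicin and (-)-Nutlin lists of the same Arf tumour already count as 2. Absence was from 18 Arf lists for the 5.11% and from 4 OHT lists for the 24%. The shares therefore cannot be compared directly.

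The absence from Arf tumours was set almost wholly by the doxorubicin and (-)-Nutlin lists. Without a peak in any of these 6 lists were 415 of the 8100 regions, and the remaining 12 lists (untreated tumours, solvents and (+)-Nutlin) took away just 1 more. Single lists covered very different shares of the 8100. The (-)-Nutlin lists of tumours 5, 6 and 7 had a peak in 82.0%, 83.9% and 46.8% of them, and the doxorubicin lists in 80.6%, 37.5% and 63.2%. The untreated lists of tumours 5, 6 and 7 covered 18.5%, 11.5% and 3.57%. Leaving out all lists of tumour 6 raised the number of restricted sites to 773 and leaving out those of tumour 5 to 863, against 472 without tumour 7. Absence from all Arf lists therefore rests on tumours 5 and 6 more than on tumour 7.

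Restricted sites recurred less among the KI tumours than the comparison regions did. Exactly 2 OHT lists held 367 of the 414 (88.6%), exactly 3 held 45 (10.9%), and all 4 held 2 (0.48%). Among the comparison regions the same shares were 57.8%, 26.7% and 15.5%. Read the other way, the share with no Arf peak was 37.8% of 3713 regions called in exactly 1 OHT list, 7.63% in exactly 2 lists, 2.15% in exactly 3 and 0.168% in all 4. The more KI tumours shared a site, the smaller was the share without an Arf peak. Of 853 regions with at least 2 OHT lists that also had an EtOH peak, 3 had no Arf peak, or 0.352%.

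Tumours 3 and 4, which have the 2 longest OHT lists, held most of the restricted sites. Of the 414, 289 (69.8%) were called in tumours 3 and 4 only. Among comparison regions this share was 49.8%, but those were more often called in 3 or 4 lists. Among regions in exactly 2 OHT lists, tumours 3 and 4 were the pair in 78.7% of restricted sites and in 86.1% of comparison regions, and both tumours were among the lists of 79.5% and 87.9% of all regions of each set. At equal recurrence the pair was thus less common among restricted sites, and its share without an Arf peak, 7.02%, was the lowest of the 6 pairs (up to 18.9% for tumours 2 and 3). The next combinations were tumours 1 and 3 with 32, tumours 2, 3 and 4 with 24, and tumours 1 and 2 with 18. Those 18 are the only restricted sites with neither tumour 3 nor tumour 4. By tumour, 77, 75, 380 and 345 of the sites were called in tumours 1, 2, 3 and 4. Their peaks made up 1.88%, 2.09%, 3.77% and 3.55% of the respective OHT lists, or 2.82% ± 0.98 (SD, n = 4), so the 2 longer lists also held a larger share. The rule was also applied anew with the OHT and EtOH lists of 1 KI tumour left out. It gave 79 sites without tumour 3 and 112 without tumour 4, whereas it gave 361 and 373 without tumours 1 and 2. Regions outside the 414 can enter this way. Of the 414, 111 had at least 2 lists among tumours 1, 2 and 3, against the 112 found without tumour 4.

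**Figure D1:**
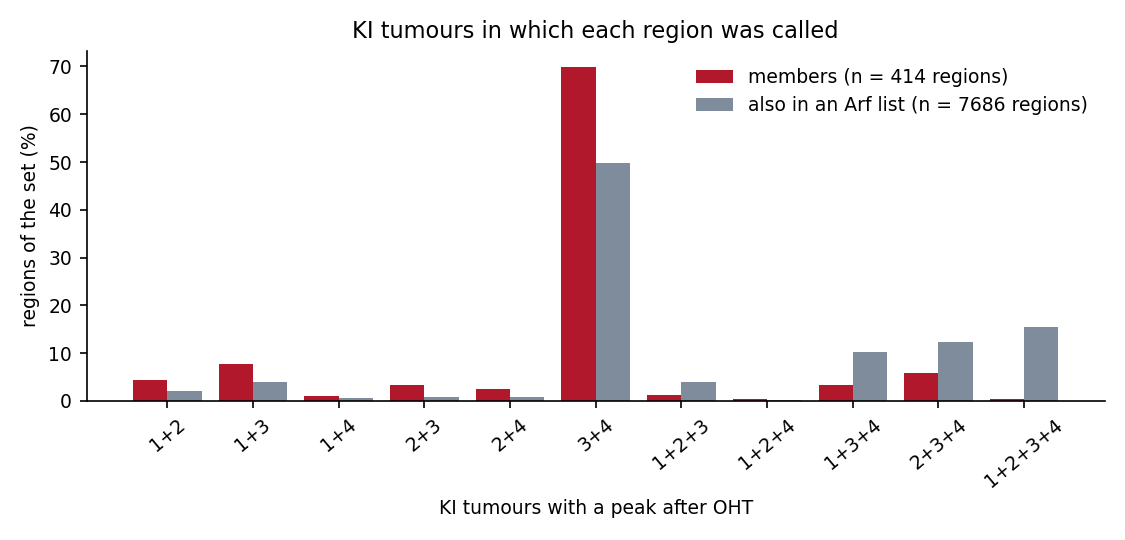
Share of regions (y axis, % of each set) by the KI tumours with a peak after OHT (x axis), for the 414 restricted sites (red) and the 7686 comparison regions also called in an Arf list (grey). Tumours 3 and 4 alone account for 69.8% of restricted sites and 49.8% of comparison regions, and all 4 tumours for 0.48% and 15.5%. Among regions in exactly 2 lists the pair's shares are 78.7% and 86.1%.

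Where 2 tumours shared a restricted site, their peaks lay nearly on top of each other. In the 328 restricted sites with 1 peak in each of tumours 3 and 4, the midpoints were a median of 34.5 bp apart (quartiles 17.5 and 69.5 bp), and 86.0% were within 100 bp. The 6636 comparison regions of that pair had a median of 30.5 bp, with 90.2% within 100 bp. Over the other 5 pairs of tumours the medians were 29.75 to 53 bp for restricted sites and 38 to 45 bp for comparison regions. The shorter of the 2 peaks of tumours 3 and 4 lay under the other over a median of 98.3% of its length. Over those 5 pairs, 76.3% to 83.0% of restricted sites and 80.6% to 87.9% of comparison regions were within 100 bp. In every pair the share was lower for restricted sites. Restricted sites hold OHT peaks only, so where a site has 1 peak in each of just 2 lists, these overlap by the rule. In sites of 3 or 4 lists, 2 peaks can also be joined through another OHT peak without overlap. The largest offset at a restricted site was 729 bp, between tumours 2 and 4. Peaks of comparison regions can be joined through an Arf peak as well. The offsets are therefore a description over regions and not a test.

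Peaks at restricted sites were narrower than those at comparison regions of the same list in tumours 2, 3 and 4. Width comes from the same peak calls as the choice of sites, so it is described and not tested. The median width was 454 bp against 457 bp in tumour 1, 405 bp against 456 bp in tumour 2, 401.5 bp against 491 bp in tumour 3 and 376 bp against 465.5 bp in tumour 4. Over regions in exactly 2 OHT lists the medians were 477.5 bp against 508.5 bp in tumour 1, 417 bp against 436 bp in tumour 2, 400 bp against 450 bp in tumour 3 and 374 bp against 437 bp in tumour 4. In exactly 2 lists restricted sites were thus the narrower in all 4 tumours, by more in tumour 1 and by less in tumours 2, 3 and 4 than over all regions. In exactly 3 lists they were narrower in tumours 2, 3 and 4 but not in tumour 1 (412 bp against 408 bp). The 2 sites in all 4 lists had wider medians than comparison regions in tumours 1 and 3 and narrower medians in tumours 2 and 4. Within their lists, peaks at restricted sites had a median percentile of width of 52.4, 31.2, 25.4 and 26.8 in tumours 1 to 4. The widest peak at a restricted site was 1072 bp, in tumour 1, whereas the widest at a comparison region was 2364 bp, in the same list.

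The share of restricted sites was lower at each wider step in the longer lists. In tumour 3, restricted sites made up 11.01% of the narrowest quintile of peaks (over restricted and comparison regions), then 6.37%, 2.93%, 2.15% and 1.71% up to the widest. Tumour 4 ran from 11.2% to 1.64%. In tumour 2 the shares were 4.11%, 4.03%, 1.96%, 2.27% and 0.88%, and in tumour 1 they were 3.48%, 1.90%, 3.61%, 3.28% and 1.03%. Tumour 1 had no steady order, although its widest quintile was the lowest. Reducing each OHT list to its widest 3597 peaks, the length of the shortest list, left 56 restricted sites. Comparison regions left after this cut were not counted, so the share of restricted sites among recurrent regions is not known there.

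**Figure D2:**
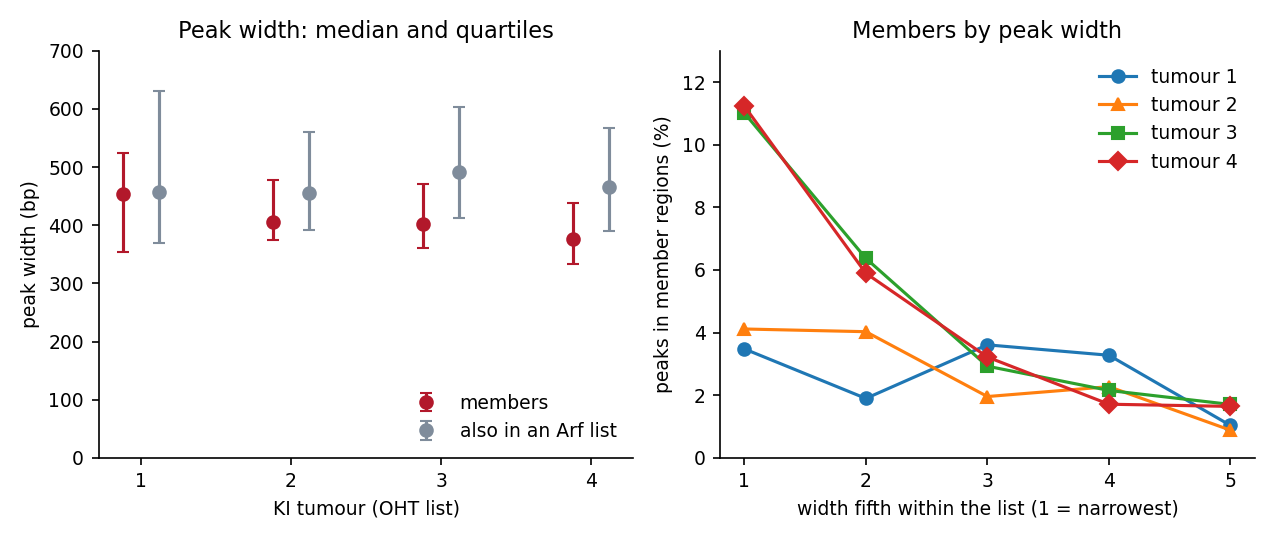
Left, peak width (bp, median with quartiles) at restricted sites (red) and comparison regions (grey) in the OHT list of each KI tumour. Right, peaks in restricted sites (% of peaks in both sets) by quintile of width within each list, from 11.01% and 11.2% in the narrowest quintile of tumours 3 and 4 to 1.71% and 1.64% in the widest.

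Chromosome 5 held more restricted sites than any other chromosome. It carried 71 of the 414 sites, or 17.1% (95% exact Clopper-Pearson interval 13.6 to 21.1%, which covers counting error only), against 7.0% of the comparison regions. Of the 8100 recurrent OHT regions without an EtOH peak, 11.7% had no Arf peak on chromosome 5, against 4.58% on all other chromosomes together. The other chromosomes ranged from 2.62% on chromosome 13 to 8.64% on chromosome X, where 7 of the sites lay. Chromosome 11 came next in number with 29 sites, or 7.0%, and 8.21% of comparison regions. The chromosome was not part of the rule that chose the sites, but the excess on chromosome 5 was singled out after its value was seen. Over regions called in tumours 3 and 4 only, chromosome 5 held 58 of 289 restricted sites (20.1%) and 252 of 3825 comparison regions (6.59%).

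**Figure D3:**
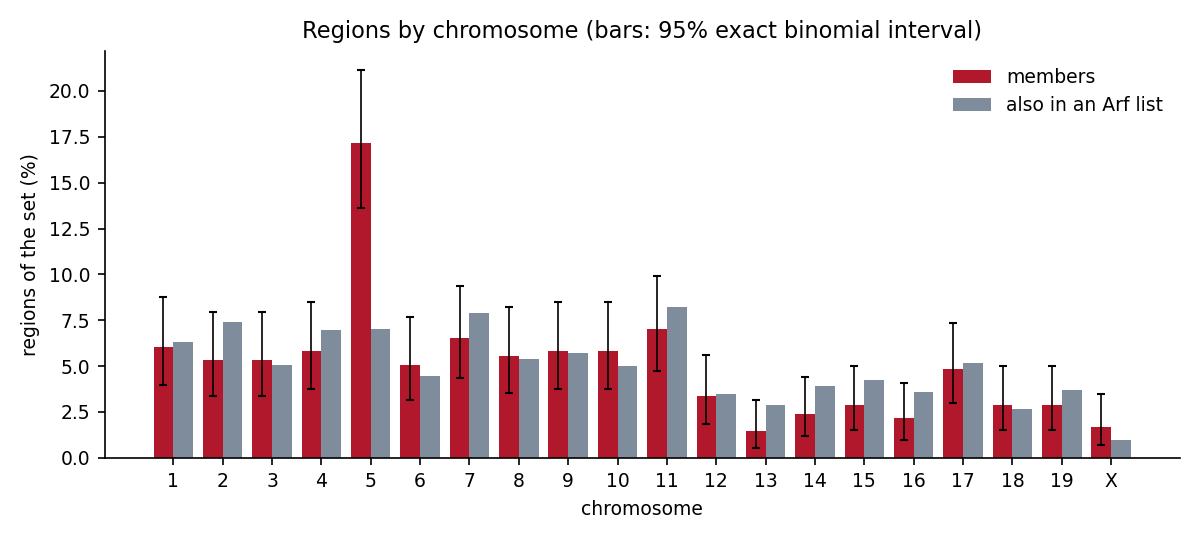
Share of regions on each chromosome (y axis, % of the set) for restricted sites (red, with 95% exact binomial intervals for counting error) and comparison regions (grey). Chromosome 5 holds 17.1% of restricted sites and 7.0% of comparison regions.

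The chromosome 5 sites came mostly from tumours 3 and 4 and spread along the chromosome. Of the 71, 58 were called in tumours 3 and 4 only, 7 in tumours 1 and 3, 3 in tumours 2, 3 and 4, 2 in tumours 1, 3 and 4, and 1 in tumours 1 and 4. Among peaks at restricted sites, 10 of 77 lay on chromosome 5 in tumour 1 (12.99%), 3 of 75 in tumour 2 (4.0%), 70 of 380 in tumour 3 (18.4%) and 64 of 346 in tumour 4 (18.5%). Tumour 2 was the only KI tumour whose share at restricted sites was not above its share at comparison regions, which was 4.90%. The first of the 71 sites starts at 5419890 and the last ends at 152454053. In 4 stretches of 40 Mb, from 0 to 160 Mb, the share of recurrent OHT regions without an Arf peak was 10.3%, 12.9%, 14.0% and 10.8%. Each stretch thus exceeded the 4.58% of the other chromosomes. At least 3 OHT lists held 47 sites, and 10.6% of these lay on chromosome 5, and without tumour 3 the share among the remaining 79 sites was 7.59%.

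The same KI tumours had a larger share of all their peaks on chromosome 5, in both treatments. In the EtOH lists, 15 of 116 peaks (12.9%), 11 of 186 (5.91%), 122 of 742 (16.4%) and 51 of 367 (13.9%) lay on chromosome 5 in tumours 1 to 4. In the OHT lists the shares were 10.1%, 5.92%, 8.58% and 7.92%. Across the 18 Arf lists the share ran from 5.83% to 7.81%. Tumours 1, 3 and 4 thus lay above every Arf list in both treatments, and tumour 2 lay within their range in both. With the restricted sites left out, the OHT shares were 10.01%, 5.96%, 8.19% and 7.53%, so tumours 1 and 3 still lay above every Arf list and tumour 4 fell within the range.

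Averaged over tumours, 8.12% ± 1.72 (SD, n = 4) of OHT peaks lay on chromosome 5, and 6.35% ± 0.22 (SD, n = 3) of the peaks of activated Arf tumours, each the mean of its doxorubicin and (-)-Nutlin lists. The difference of 1.77 percentage points was the largest of 20 chromosomes, but the spread among KI tumours was nearly as large. In a two-sided exact permutation test over the 4 and 3 tumours p was 0.229 (Benjamini-Hochberg adjusted over 20 chromosomes, 0.571), where the smallest possible p is 0.0571. Without the restricted sites the difference was 1.57 points with the same exact permutation p. At the other end, chromosome 13 held 2.72% ± 0.71 (SD, n = 4) of OHT peaks and 3.95% ± 0.19 (SD, n = 3) of those of activated Arf tumours, and the groups did not overlap (exact permutation p = 0.0571, adjusted 0.229). This was not particular to chromosome 13. Chromosomes 2, 6, 12 and X, also with lower OHT shares, gave the same exact permutation p and adjusted p. The comparison was added after the values were seen and crosses genotype, agent and time. DNA content per chromosome was not analysed here, and its part in the result was not tested.

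**Figure D4:**
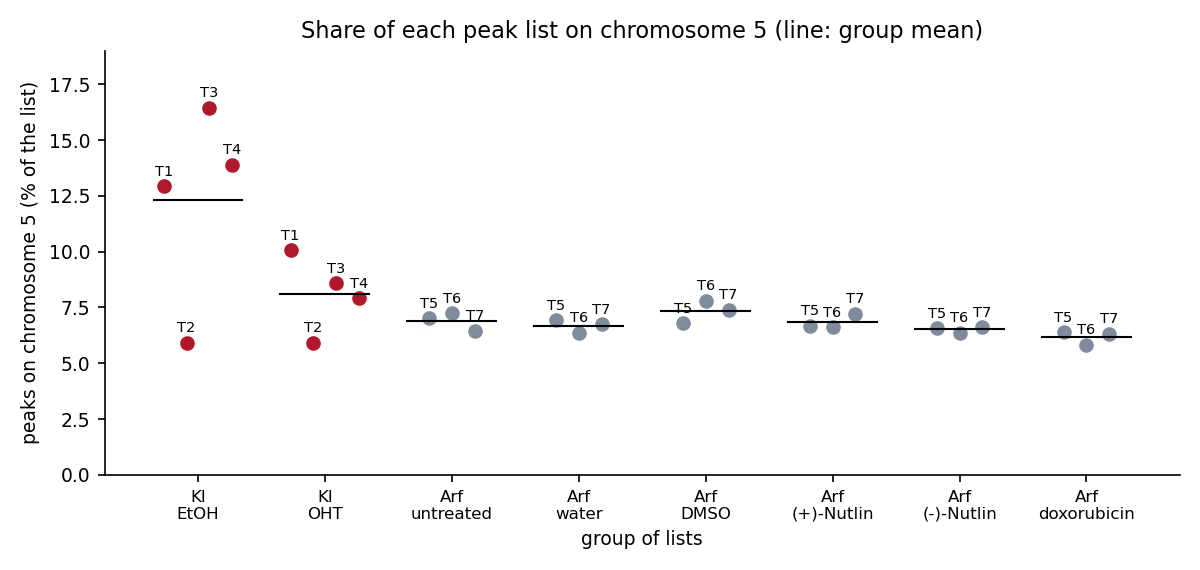
Share of peaks on chromosome 5 (y axis, % of the list) for each of the 26 lists by group, KI in red and Arf in grey, labelled by tumour (T1 to T7), with a line at each group mean. KI tumours 1, 3 and 4 lie above the Arf lists (5.83% to 7.81%) with EtOH and with OHT, and KI tumour 2 lies among them.

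The share on chromosome 5 was higher among the widest than among the narrowest peaks of each OHT list. In the OHT list of tumour 3, chromosome 5 held 6.59% of the narrowest quintile of all peaks and 12.4% of the widest, and in tumour 4 it held 7.19% and 9.76%. Tumour 1 had 8.28% and 10.9%, and tumour 2 had 5.14% and 6.82%. In the 6 doxorubicin and (-)-Nutlin lists the narrowest quintile held 5.69% to 6.96% and the widest 5.86% to 7.03%. Their direction was mixed. The widest quintile was the higher in the (-)-Nutlin lists of tumours 6 and 7 (5.69% and 7.03% in tumour 7) and in the doxorubicin list of tumour 7. It was the lower in both lists of tumour 5 and in the doxorubicin list of tumour 6. At restricted sites the median width on chromosome 5 and elsewhere was 410.5 and 457 bp in tumour 1, 405 and 406.5 bp in tumour 2, 446.5 and 395.5 bp in tumour 3, and 379 and 376 bp in tumour 4. Restricted sites on chromosome 5 were thus wider in tumour 3, narrower in tumour 1 and nearly level in tumours 2 and 4.

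Regions called in a single OHT list and nowhere else, which fall outside the rule by 1 list, showed the same pattern by tumour. Of 612 such regions of tumour 3, 15.7% lay on chromosome 5, as did 10.6% of 625 of tumour 4, 13.6% of 110 of tumour 1 and 3.45% of 58 of tumour 2.

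Few restricted sites lay near another restricted site. As merged regions, restricted sites had a median width of 461 bp, from 328 to 1157 bp, and together covered 207.8 kb. The median was 653 bp for comparison regions, whose merged width also takes in Arf peaks and, more often, peaks of 3 or 4 OHT lists. The 2 widths are thus not alike in kind. The nearest peak of any EtOH or Arf list was a median of 12489 bp away (quartiles 4576 and 39499 bp), and 27 sites (6.52%) had one within 500 bp. Of the 42 sites with such a peak within 1000 bp, it came from a doxorubicin list in 30, a (-)-Nutlin list in 11 and an EtOH list in 1. For comparison regions the nearest separate peak of those lists was a median of 16330.5 bp away, with 4.63% within 500 bp. Requiring no EtOH or Arf peak within 1000 bp left 372 sites. Another restricted site lay within 50000 bp in 43 cases (10.4%), whereas 59.1% of comparison regions had another comparison region that near. Spacing depends on the number of regions, here 414 against 7686, so these shares do not show that restricted sites are more scattered. In 2 places 3 restricted sites came together. One was chr12:33987661-34000467, a span of 12807 bp, and the other chr18:60892751-60965681. All 6 sites there were called in tumours 3 and 4 only.

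The highest-ranked sites, by number of OHT lists and then by width within the lists, began with the 2 regions called in every OHT list. The first, chr14:31409032-31410008, had peaks of 739, 448, 839 and 363 bp in tumours 1 to 4, and a peak of the doxorubicin list of tumour 5 lay 465 bp away. The second, chr2:31306885-31307512, had peaks of 502, 369, 500 and 308 bp, with the nearest Arf peak 1565 bp away. Both therefore had an Arf peak close by without overlap.

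Among sites in 3 OHT lists, chr4:154500498-154501569 ranked first, with peaks of 1072 bp in tumour 1, 816 bp in tumour 2 and 492 bp in tumour 4. These are the widest peaks of any restricted site in tumours 1 and 2, and tumour 3 had none there. The next, chr3:88340253-88340984, had peaks of 621, 628 and 707 bp in tumours 2, 3 and 4. Its nearest Arf peak was 4190 bp away, against 39662 bp for the site on chromosome 4.

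A pair of sites on chromosome 11 followed different tumours. At chr11:5918145-5919161 the peaks were 520, 1017 and 422 bp in tumours 1, 3 and 4, and at chr11:5050671-5051430 they were 485, 468 and 739 bp in tumours 2, 3 and 4. On chromosome 1, chr1:134750362-134751060 had peaks of 699, 467 and 526 bp in tumours 1, 2 and 3 and none in tumour 4. A further restricted site, called in tumours 1 and 3, lay in the same stretch of 1850 bp.

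The site ranked highest on chromosome 5 was chr5:143556063-143556734, with peaks of 405, 616 and 622 bp in tumours 2, 3 and 4. The last of the 10 sites ranked first were chr15:57647868-57648507, with 607, 579 and 363 bp in tumours 1, 2 and 4, and chr7:144480871-144481615, with 444, 745 and 382 bp in tumours 1, 3 and 4. Their nearest Arf peaks were 75243 and 117623 bp away, the farthest of the 10.

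Just inside the rule, the 3 highest-ranked sites in exactly 2 OHT lists were all called in tumours 3 and 4, and were wide. They were chr3:135243355-135244362 with peaks of 794 and 779 bp, chr8:123824422-123825296 with 721 and 768 bp, and chr6:147424144-147425095 with 647 and 927 bp. The nearest EtOH or Arf peaks lay 26593, 191911 and 257106 bp away.

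Just outside the rule were 558 regions with a peak in exactly 1 Arf list, more than the 414 inside it. The 1 list was the (-)-Nutlin list of tumour 6 in 258, that of tumour 5 in 113 and that of tumour 7 in 1, and the doxorubicin list of tumour 5, 6 or 7 in 106, 25 and 54. The 1 remaining region had its peak in the untreated list of tumour 5. The 3 ranked highest were called in all 4 OHT lists. The region chr16:22544914-22545858 had OHT peaks of 847, 761, 865 and 408 bp, and chr17:27836329-27837025 had 401, 438, 461 and 697 bp, and both had their Arf peak in the (-)-Nutlin list of tumour 6. The region chr16:93808217-93809134 had OHT peaks of 918, 653, 552 and 368 bp and its Arf peak in the doxorubicin list of tumour 7. In mean percentile of width the 558 regions had a median of 34.5, between 30.4 for the restricted sites and 50.5 for all comparison regions. On chromosome 5 lay 10.4% of the 558.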

How the data were processed

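Per the labels' protocols, chromatin of lymph node lymphoma cells was sonicated and immunoprecipitated for p53. The submitters' processing notes name BWA 0.6.2, SAMtools and build mm9. Which program called the peaks, at what threshold and against which input, is not given in the sources used. The authors deposited 1 list of peaks per ChIP library, with chromosome, start and end in bp and no score. Coordinates are printed counted from 1.

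Peaks of the 26 lists (102916 in all) were merged where they shared at least 1 bp, with Python 3.11.15. Restricted sites had a peak in at least 2 OHT lists, no EtOH list and no Arf list. Comparison regions differed by having an Arf peak. Width percentiles are ranks within a list. The named regions are the 10 ranked first by number of OHT lists and mean width percentile, and 3 on each side of the threshold. The code recovered all planted sites in simulated lists. Those sites were far apart, with wide overlapping peaks, and followed the same rule, so this checks the code and not the choice of rule. Narrow peaks, close neighbours and chained peaks were not simulated. Chromosome shares were compared by exact permutation over tumours with scipy 1.17.1. A tumour is 1 animal's lymphoma as far as the titles show, and p-values measure the spread between these tumours. The planned comparisons of motifs and of distance to start sites were not run, since no genome or annotation of mm9 was used here, and gene lists were therefore not used either. The members and lists were chosen with earlier results of these data known. The comparisons at equal recurrence and all those by chromosome were added after the data were seen.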

Additional observations from a re-analysis of the deposited data

Results flagged for a closer look

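Of 37 measures looked at across 4 KI lists, 2 had 1 tumour far from the other 3 by Dixon's criterion, and chance alone marks about 1 in 20. In the OHT lists, tumour 2 had 7.40% of its peaks on chromosome 3, whereas tumours 1, 3 and 4 had 5.00%, 5.15% and 5.21%. With EtOH the same tumour had 26 of 186 peaks there (14.0%), against 3.45% to 9.26% in the other 3. At restricted sites, tumour 1 had 0 of 77 peaks on chromosome 3, and tumours 2, 3 and 4 had 5.33%, 5.53% and 6.07%. For tumour 1, an approximate limit of 3 counts over 77 peaks allows a share of up to 3.90%. An exact interval was not computed for it. Comparison regions of the same list had 4.43%, close to this limit, and the difference was not tested. Of the 58 regions called in the OHT list of tumour 2 and nowhere else, 22.4% lay on chromosome 3, against 5.07% to 5.45% of the single-list regions of the other tumours.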

How the results depend on the processing

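The number of restricted sites, 414, stayed between 361 and 472 in 8 of 16 alternatives. These included merging within 200 or 500 bp, no other peak within 1000 bp, and 200 bp around midpoints. The others were absence from wide lists only, and leaving out tumour 1, 2 or 7. No EtOH list is wide, so absence from wide lists sets no condition on EtOH. The number became 56 with OHT lists reduced to the shortest, 47 and 2 when at least 3 or all 4 OHT lists were required, and 972 with 1 Arf list allowed. Leaving out 1 tumour gave 79 to 863 sites. The number of comparison regions under each alternative was not counted, so these counts have no share beside them. The share on chromosome 5, 17.1%, was 10.6% in at least 3 OHT lists and 13.3% with 1 Arf list allowed, and 7.59% to 19.03% with 1 tumour left out. The difference in chromosome 5 share between OHT and activated Arf lists kept its sign in all 9 alternatives run (1.12 to 2.69 points), and leaving out 1 tumour gave 1.12 to 2.50 points. Median widths of 454, 405, 401.5 and 376 bp in tumours 1 to 4 were 426.5 to 464.5, 400 to 418, 400 to 428 and 376 to 387 bp with 1 tumour left out. With OHT lists reduced to their widest peaks they became 502 bp in tumour 1, 654 bp in tumour 3 and 642 bp in tumour 4, since narrow peaks are removed. In the 2 sites of all 4 lists they were 620.5, 669.5 and 335.5 bp in tumours 1, 3 and 4. The median was 412 bp in tumour 1 over sites in exactly 3 lists and 442 bp in tumour 3 over those in at least 3. The causes of the other shifts were not tested. For the tested groups, no paired analysis was possible because KI and Arf tumours share no tumour number. The OHT and EtOH lists of tumours 1 to 4 could be paired by tumour, but no test between them was run. Restricted and comparison peaks of the same list could be paired too, but the restricted sites are described without a test. Depth per library is unknown, so absence from a list does not show absence of binding. The alternatives for motifs and start sites were not run.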

Other observations

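Only 3 regions had an EtOH peak and at least 2 OHT peaks but no Arf peak, and 2 of them lay on chromosome 5. They were singled out after their values were seen. At chr5:105539210-105539635 the EtOH peak of tumour 3 was 52 bp wide and the OHT peaks of tumours 3 and 4 were 359 and 426 bp. At chr5:149929493-149930442 the EtOH peak was 61 bp, in tumour 4, and the OHT peaks were 596 and 897 bp, in tumours 1 and 3. The third, chr9:57163062-57164049, had an EtOH peak of 75 bp and an OHT peak of 988 bp in tumour 1, and an OHT peak of 344 bp in tumour 4.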
